A study of Mus musculus with 18 samples.

Results

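Transcription factor genes known for building and holding the macrophage lineage were examined in bone marrow-derived macrophages (BMDM) of WT, mdx and mdxTLR4-/- mice. The genes were Spi1, Cebpa, Cebpb, Irf8, Maf, Runx1, Klf4, Mitf and Tfec, named as a list and not by a rule on their values. The list was drawn up with earlier results of these data known. Its genes are 9 of the 21938 protein-coding genes of GENCODE vM21 (mouse build mm10). Chromatin immunoprecipitation sequencing had been done for H3K27me3, the trimethylated lysine that Polycomb places on silenced chromatin, and for H3K27ac, the acetylated form of the same lysine that marks active promoters and enhancers. WT mice were labelled C57BL6. Dystrophin-deficient mdx mice were labelled Dmdmdx-4Cv, and the third genotype, mdx mice that lack the endotoxin receptor TLR4 in all tissues and not in macrophages alone, carried the strain label Bl6/Bl10. Its H3K27ac library is titled mdxTLR4 and its H3K27me3 libraries mTLR4, which was read as the same genotype because the strain label is shared. All mice were male by the study's methods, and all cells had been grown from marrow with L929 supernatant as the source of macrophage colony-stimulating factor and were left unstimulated. There were 2 H3K27me3 libraries per genotype, and 2, 2 and 1 H3K27ac libraries for WT, mdx and mdxTLR4-/-. The labelled ages were 12 to 13, 14 to 15 and 16 to 17 weeks for H3K27me3 and 19 to 20, 21 to 22 and 23 weeks for H3K27ac, in the order WT, mdx and mdxTLR4-/-. Over all 18 samples, inputs included, the labelled age rises by 1 week from each sample to the next, from 6 to 23 weeks, so it is doubtful that these labels are the ages of the mice. Strain label and genotype cannot be told apart. By the study's methods the WT, mdx and TLR4-/- mice were on a C57BL/6J background, which the label Bl6/Bl10 does not match. The replicates had been merged before peaks were called, which left 1 peak list per mark and genotype and no spread between mice. The genotypes were therefore compared without a test, and the intervals given are 95% intervals that cover counting error only.

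PU.1, the product of Spi1, is the Ets-family factor without which macrophages do not form, and it opens enhancers together with C/EBPα and C/EBPβ (Cebpa, Cebpb) and with RUNX1 in earlier progenitors. IRF8 pairs with PU.1 on composite sites and drives progenitors toward monocytes and dendritic cells, whereas KLF4 acts in monocyte differentiation and c-MAF (Maf) restrains self-renewal in mature macrophages. MITF and TFEC are related basic helix-loop-helix leucine zipper factors of lysosomal gene control, of which MITF is best known from melanocytes and osteoclasts and TFEC from myeloid cells.

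In the peak lists these genes carried H3K27ac and almost no H3K27me3. All 9 members had an H3K27ac peak between 5 kb upstream of the gene body and 1 kb past its end in WT and in mdx, and 8 had one in mdxTLR4-/-, Klf4 being without. Over all protein-coding genes the share with an H3K27ac peak in that window was 39.9% in WT, 34.5% in mdx and 36.5% in mdxTLR4-/-. An H3K27me3 peak touched the same window at 1 member in WT (Runx1), at 2 in mdx (Runx1 and Irf8) and at 2 in mdxTLR4-/- (Runx1 and Mitf). Over all protein-coding genes the share with such an H3K27me3 peak was 38.4% in WT, 41.3% in mdx and 39% in mdxTLR4-/-. No member reached 50% of its window under H3K27me3, the coverage called Increased here, in any genotype, while 16.6%, 16.3% and 14.9% of all protein-coding genes did in WT, mdx and mdxTLR4-/-. In the study itself, Increased meant a read intensity significantly above that of the input. That designation was not recomputed here, and the word stands below for rules on peak coverage. None of the gene starts lay in an H3K27me3 peak in any of the 3 lists.

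**Figure D1:**
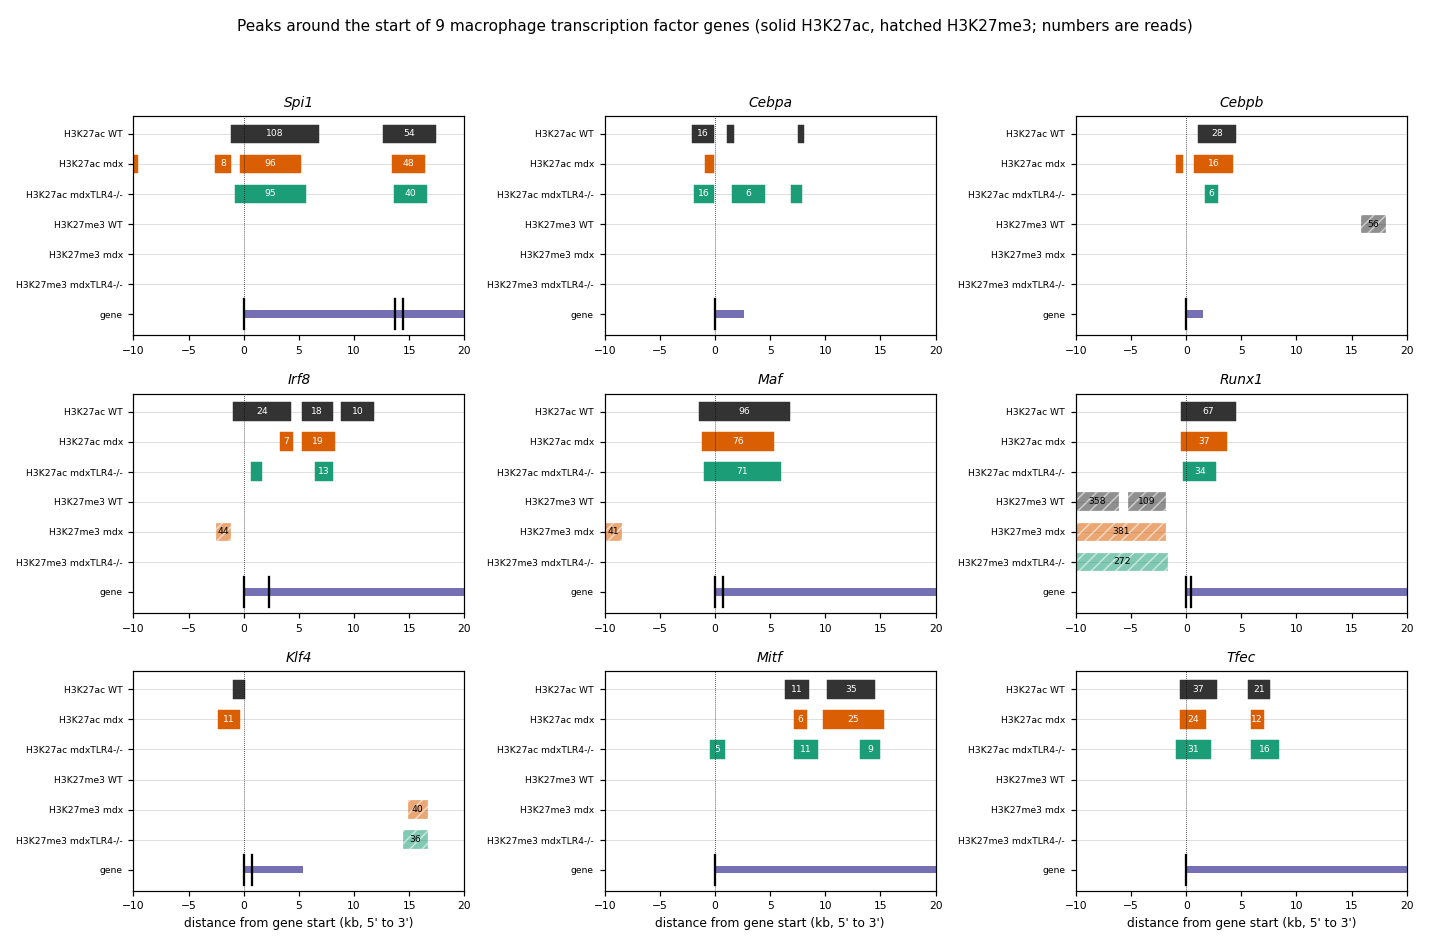
Peaks from 10 kb before to 20 kb after the start of each of the 9 genes, plotted against the distance from the gene start in kb in the direction of transcription, with solid bars for H3K27ac and hatched bars for H3K27me3 in WT, mdx and mdxTLR4-/-. Numbers in the wider bars are the reads of the peak, the violet bar is the gene body and black ticks are transcript starts. An acetylated peak lies within 4 kb of every start except that of Mitf in WT and mdx and that of Klf4 in mdxTLR4-/-, while H3K27me3 comes within 5 kb of a start at Runx1 and, in mdx, at Irf8.

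The promoter sequences below are shown because the members' starts differ in base composition and in acetylation: the distal and the proximal start of Runx1 and the start of Tfec were acetylated in all 3 lists, the first start of Irf8 in WT alone, and the first start of Mitf in mdxTLR4-/- alone, whereas the last start of Mitf was without a peak of either mark. They are the 250 bases before the start, 5′ to 3′, from RefSeq on GRCm38.p6 (the assembly of mm10), and capitals mark a match to a motif searched on both strands. Windows were found for 7 of the 9 members, in 11 promoters. Spi1 and Maf had no entry.
Runx1 distal, chr16:92826075-92826324, minus strand: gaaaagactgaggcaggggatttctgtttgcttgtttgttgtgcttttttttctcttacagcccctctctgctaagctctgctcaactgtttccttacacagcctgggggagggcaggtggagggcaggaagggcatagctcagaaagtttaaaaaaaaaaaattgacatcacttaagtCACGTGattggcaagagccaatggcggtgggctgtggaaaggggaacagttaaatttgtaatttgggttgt
Runx1 proximal, chr16:92697330-92697579, minus strand: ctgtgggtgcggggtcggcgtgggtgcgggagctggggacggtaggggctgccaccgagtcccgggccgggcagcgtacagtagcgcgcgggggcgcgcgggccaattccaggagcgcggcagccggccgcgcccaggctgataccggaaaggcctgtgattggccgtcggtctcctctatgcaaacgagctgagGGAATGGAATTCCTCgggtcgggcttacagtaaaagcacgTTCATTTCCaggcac
Tfec, chr6:16898442-16898691, minus strand: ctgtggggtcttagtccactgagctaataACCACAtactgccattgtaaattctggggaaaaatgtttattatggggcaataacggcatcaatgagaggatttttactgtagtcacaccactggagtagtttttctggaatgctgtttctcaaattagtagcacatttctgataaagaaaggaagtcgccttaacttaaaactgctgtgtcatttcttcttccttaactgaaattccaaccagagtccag
Irf8 first, chr8:120736108-120736357, plus strand: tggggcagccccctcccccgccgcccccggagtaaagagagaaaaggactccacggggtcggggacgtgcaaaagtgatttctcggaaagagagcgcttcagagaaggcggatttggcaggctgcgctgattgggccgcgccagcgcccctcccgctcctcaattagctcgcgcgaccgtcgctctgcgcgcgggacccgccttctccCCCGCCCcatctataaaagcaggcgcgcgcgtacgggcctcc
Mitf first, chr6:97806808-97807057, plus strand: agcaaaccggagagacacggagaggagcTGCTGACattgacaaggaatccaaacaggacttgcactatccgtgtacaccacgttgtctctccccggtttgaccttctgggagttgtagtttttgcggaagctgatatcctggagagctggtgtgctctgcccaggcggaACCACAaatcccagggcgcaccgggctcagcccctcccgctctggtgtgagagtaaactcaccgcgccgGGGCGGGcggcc
Mitf last, chr6:97991533-97991782, plus strand: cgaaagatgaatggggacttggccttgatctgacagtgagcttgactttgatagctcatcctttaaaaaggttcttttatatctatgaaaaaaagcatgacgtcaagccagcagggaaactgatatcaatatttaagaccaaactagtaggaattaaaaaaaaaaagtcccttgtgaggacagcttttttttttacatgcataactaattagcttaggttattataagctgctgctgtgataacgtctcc

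Base composition and motifs were counted over the 300-base window from 250 bases before to 50 bases after each start. The distal Runx1 start was poor in CpG, with 2 in its window and a GC content of 45.0%, and the proximal Runx1 start was rich in it, with 35 CpG and 69.0%. Tfec had 3 CpG and 40.3%, the first Irf8 start 38 CpG and 70.0%, the first Mitf start 22 CpG and 62.7%, and the last Mitf start 8 CpG and 40.0%. The remaining 5 windows held 29 CpG at Cebpa, 50 at Cebpb, 40 at Klf4, 8 at the second Irf8 start and 5 at the middle Mitf start, against a median of 7 over 32851 promoters. CpG-poor and CpG-rich starts were thus both among those with H3K27ac in every list. The PU.1 core GAGGAA matched 2 of the 11 windows, the proximal Runx1 start at 46 bases before the start and Tfec at 33 bases past it, and 28.3% of all promoters held it. The RUNX motif TGTGGT matched 3 windows, namely the distal Runx1 start at 28 and again at 36 bases past the start, the first Mitf start and Tfec, and 16.8% of all promoters held it. The composite of IRF and Ets factors, GGAAGTGAA or GGAANNGAA, matched the proximal Runx1 start only, at 55 and at 15 bases before the start, and 8.24% of all promoters held it. The former of its spellings is contained in the latter, and the match at 55 bases ends directly before the PU.1 core at 46. The MAF motif TGCTGAC matched the first and the middle Mitf window (4.67% of all promoters), the E-box CACGTG or CATGTG the distal Runx1 start and Klf4 (20.4%), and the KLF motif GGGTGTGG or GGGCGGG the windows of Cebpb, Klf4, the first Irf8 and the first Mitf start (28.1%). The C/EBP palindromes TTGCGCAA, TTGCGTAA and TTGCATAA matched none of the 11 windows and 1.09% of all promoters. A match is a run of letters and not evidence of binding.

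H3K27ac covered the gene start itself at 6 of 9 members in WT (Spi1, Irf8, Maf, Runx1, Klf4 and Tfec), at 4 in mdx (Spi1, Maf, Runx1 and Tfec) and at 5 in mdxTLR4-/- (the same 4 and Mitf). Of all protein-coding genes, 24% had a covered start in the WT list, 20.6% in that of mdx and 20.9% in that of mdxTLR4-/-. Of the 6 starts covered in WT, those of Irf8 and Klf4 were uncovered both in mdx and in mdxTLR4-/-. Of all WT-covered starts, 29.2% were uncovered in mdx and 29.5% in mdxTLR4-/-, so that a loss at 2 of 6 was near the share over all genes. The difference between the lists depended on the rule, since a peak within 1 kb of the start was found at 7 members in every list, against 27.9%, 23.8% and 25.7% of all protein-coding genes. By the rule of at least 200 bp of acetylated sequence in the 5 kb upstream of the start, also called Increased, 7 members passed in WT, 7 in mdx and 6 in mdxTLR4-/-, against 26%, 21.9% and 22.2% of all protein-coding genes. With at least 1 kb asked for, 3, 3 and 2 members passed, against 13.4%, 10.6% and 9.69%.

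The start peaks differed widely in reads, and less so in reads per kb of peak. Spi1 and Maf carried the most reads over the gene start, with 108 and 96 in WT, 96 and 76 in mdx, and 95 and 71 in mdxTLR4-/-. Per kb, the start peak of Spi1 held 13.5, 17.1 and 14.8 reads in WT, mdx and mdxTLR4-/-, above 81.5%, 93.0% and 89.9% of all genes with a covered start. Runx1 held 13.4, 8.81 and 11.3 reads per kb and stood above 81.4%, 59.4% and 78.7%. Maf, with 11.7, 11.5 and 10.1, stood above 74.4%, 76.7% and 73.2%, and Tfec, with 10.9, 10.0 and 9.69, above 69.5%, 65.6% and 68.2%. These 4 members were thus above the middle of covered genes in every list, where the median was 8.18 reads per kb in WT, 7.70 in mdx and 7.50 in mdxTLR4-/-. In WT, the Klf4 start peak was short and of middling density, at 8.00 reads per kb and above 47.4%, whereas that of Irf8 was long and thin, at 4.62 reads per kb and above 11.4%.

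**Figure D2:**
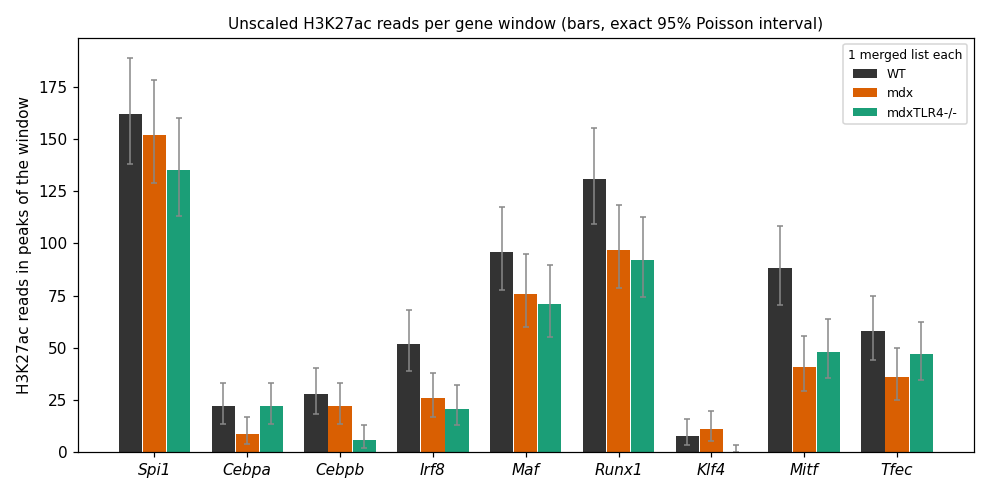
H3K27ac reads summed over the peaks of each gene window, with a bar per genotype and peak list and exact 95% Poisson intervals that cover counting error only. Spi1 stands highest with 162, 152 and 135 reads in WT, mdx and mdxTLR4-/-, Klf4 is lowest in WT with 8 and in mdxTLR4-/- with 0, Cebpa is lowest in mdx with 9, and WT is highest or level with another genotype at 8 of the 9 genes, the reads being unscaled for the unequal depth of the lists.

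Summed over the 9 windows, H3K27ac amounted to 645 reads for WT (596 to 697), to 470 for mdx (428 to 514) and to 442 for mdxTLR4-/- (402 to 485). The whole lists were unequal too, with 274020, 191629 and 168487 reads in peaks, and the members' share of them was 0.235% in WT, 0.245% in mdx and 0.262% in mdxTLR4-/-. The peaks spanned 70.0 kb in WT, 52.8 kb in mdx and 53.6 kb in mdxTLR4-/-. Merged across genotypes, the members' H3K27ac peaks formed 27 regions, of which 15 had a peak in all 3 lists. Over the genome, 28.7% of the H3K27ac regions did. Of the other 12 regions, 1 was found in WT alone, 2 in mdx alone and 3 in mdxTLR4-/- alone, and none of these 6 held more than 10 reads. The depth of the libraries is unknown, and a list without such a small region does not show that the mark was absent there.

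Spi1 lies on the plus strand at chr2:91082390-91115756. Its annotated gene start belongs to an upstream transcript, and the other protein-coding starts, the principal one among them, lie 13.7 and 14.4 kb further in. H3K27ac formed a block over the upstream start and another over the principal start in every list. The upstream block ran from 1.19 kb before to 6.81 kb past the gene start in WT (108 reads), from 0.389 kb before to 5.21 kb past it in mdx (96 reads) and from 0.789 kb before to 5.61 kb past it in mdxTLR4-/- (95 reads). The block over the principal start held 54, 48 and 40 reads in WT, mdx and mdxTLR4-/-, between 12.6 and 17.4 kb at its widest. The upstream block lies at the distance from the principal promoter at which the well-known upstream regulatory element of Spi1 is found. The peaks in the whole window held 12.7 reads per kb in WT, 15.2 in mdx and 14.4 in mdxTLR4-/-. The ratio of mdx over WT was 1.20 (0.956 to 1.51) and that of mdxTLR4-/- over WT 1.13 (0.896 to 1.43), so neither differed from 1 beyond counting error. With reads scaled to 1000000 reads in peaks per list, these ratios per kb became 1.72 (1.37 to 2.16) and 1.85 (1.46 to 2.33), above 1. Relative to the 1st percentile of read density of each list, they were 1.20 (0.956 to 1.51) and 0.993 (0.784 to 1.26), which span 1. Relative to the median density of regions shared by all lists, they were 1.40 (1.11 to 1.75) and 1.34 (1.06 to 1.69), above 1. An 8-read peak just ahead of the upstream block, from 2.59 to 1.19 kb before the start, was found in mdx alone. A further acetylated site 26.6 to 30.4 kb upstream was found in WT (30 reads), and peaks there in mdx held 13 reads and in mdxTLR4-/- 14. The nearest H3K27me3 to the Spi1 start was 150 kb away in WT, 44.4 kb in mdx and 45.0 kb in mdxTLR4-/-. The latter distances are to small peaks of 67 and 36 reads over the start of Rapsn, a muscle synapse gene, with no counterpart in the WT list. Over all genes the median distance to the nearest H3K27me3 was also longest in WT, at 22.3 kb, against 16.1 kb in mdx and 19.8 kb in mdxTLR4-/-.

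Cebpa, a gene of a single exon on the plus strand at chr7:35119293-35121928, had its acetylation next to the start and not over it. A peak ended 0.093 kb before the start in every list, with 16 reads for WT, 9 for mdx and 16 for mdxTLR4-/-, and began 2.09, 0.892 and 1.89 kb before it. A second peak past the start had 6 reads in WT and 6 in mdxTLR4-/- and was not called in mdx. Acetylation about 38 kb upstream was found in all 3 lists, with 19, 9 and 10 reads. A peak from 35.9 to 37.7 kb downstream, the distance of a known myeloid enhancer of Cebpa, held 11 reads in WT and was absent from the mdx and mdxTLR4-/- lists. The nearest H3K27me3 lay downstream, 53.1 kb from the start in WT and in mdx and 39.9 kb in mdxTLR4-/-. It was the edge of a broad domain of 1427 reads in WT and 3019 in mdx over Slc7a10, an amino acid transporter gene, and in mdx this peak reached Lrp3 as well. The WT peak was 30.4 kb long and the mdx peak 55.8 kb, and the mdx peak overlapped 2 WT peaks. The other WT peak lay past the stretch examined and is not in the 1427 reads, so these counts do not compare the same sequence. In mdxTLR4-/- the stretch of the WT peak held peaks of 249 and 1053 reads, and a peak of 250 reads lay ahead of it from 39.9 to 44.7 kb.

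Cebpb, on the plus strand at chr2:167688915-167690418, carried acetylation around and past the end of its short body. The peak ran from 1.09 to 4.49 kb past the start in WT (28 reads), from 0.686 to 4.29 kb in mdx (16 reads) and from 1.69 to 2.89 kb in mdxTLR4-/- (6 reads). WT was thus highest and mdxTLR4-/- lowest in reads, but per kb of peak over the window the ratios of mdx over WT, 0.636 (0.347 to 1.153), and of mdxTLR4-/- over WT, 0.607 (0.206 to 1.49), had intervals that span 1. An mdx peak of 6 reads lay from 0.914 to 0.315 kb before the start. Upstream, an acetylated stretch of 47 reads from 35.3 to 28.1 kb before the start in WT was overlapped by peaks of 36 and 10 reads in mdx and of 24 and 6 reads in mdxTLR4-/-. H3K27me3 was no nearer than 15.9 kb in WT, 15.1 kb in mdx and 14.7 kb in mdxTLR4-/-.

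Irf8, on the plus strand at chr8:120736358-120756694, had differences between the lists in both marks. In WT an H3K27ac peak of 24 reads ran from 0.957 kb before to 4.24 kb past the start, over the promoter printed above. In mdx that region held a peak of 7 reads from 3.24 to 4.44 kb, and in mdxTLR4-/- a peak of 8 reads from 0.643 to 1.64 kb, so neither list covered the start. A second peak inside the gene was called in all 3 lists with 18, 19 and 13 reads, and one more, from 8.84 to 11.8 kb, with 10 reads in WT alone. The window held 52 WT, 26 mdx and 21 mdxTLR4-/- reads, over 11.0, 4.20 and 2.60 kb of peak. Reads per kb of peak were 4.73 in WT, 6.19 in mdx and 8.08 in mdxTLR4-/-, in the opposite order. The ratios per kb, 1.31 (0.785 to 2.14) for mdx over WT, 1.71 (0.978 to 2.89) for mdxTLR4-/- over WT and 1.30 (0.698 to 2.41) for mdxTLR4-/- over mdx, had intervals that span 1. Other quantities went either way: the ratios of total reads against WT lay below 1, at 0.50 (0.300 to 0.815) for mdx and 0.404 (0.231 to 0.682) for mdxTLR4-/-, and the ratios per kb scaled to 1000000 reads in peaks lay above it, at 1.87 (1.12 to 3.05) and 2.78 (1.59 to 4.69). No direction of H3K27ac at Irf8 can therefore be given. An H3K27me3 peak of 44 reads (95% interval 32 to 59) lay in mdx from 2.56 to 1.16 kb before the start, at chr8:120733801-120735200, a length of 1400 bp. No H3K27me3 peak was listed there in WT or mdxTLR4-/-. In the WT list, 174 peaks had that length and the lowest held 37 reads, and in the mdxTLR4-/- list 1263 peaks did and the lowest held 25. The mdx peak, at 31.4 reads per kb, thus had more unscaled reads than the lowest of that length in either list. Scaling to reads in peaks multiplies mdx reads by 0.817 against WT, which takes the 44 reads below 37. Over the genome, 7766 of 36336 H3K27me3 regions were found in mdx alone, with a median of 50 reads. Without replicates a difference of 1 short peak cannot be set against the spread between mice. Further upstream, 48.6 to 51.8 kb before the start, H3K27ac was strong in all 3 lists with 44, 34 and 37 reads, more than at the gene start in any of them. Downstream, H3K27me3 was called past the gene end, between 33.6 and 55.8 kb and again from 63.4 kb on, in each of the lists. That side of Irf8 holds enhancers known from dendritic cells.

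Maf, on the minus strand at chr8:115682942-115707794, had 1 H3K27ac peak over its start in each list and no other within 60 kb. It ran from 1.41 kb before to 6.79 kb past the start in WT with 96 reads, from 1.21 to 5.39 kb in mdx with 76 and from 1.01 to 5.99 kb in mdxTLR4-/- with 71. Reads per kb of peak were 11.7, 11.5 and 10.1. The ratios were 0.984 (0.718 to 1.34) for mdx over WT and 0.866 (0.628 to 1.19) for mdxTLR4-/- over WT, of which the former was the nearest to 1 among the members' ratios of mdx over WT. Scaled to 1000000 reads in peaks they became 1.41 (1.03 to 1.92) and 1.41 (1.02 to 1.94). Relative to the 1st percentile of read density of each list, they were 0.984 (0.718 to 1.34) and 0.758 (0.550 to 1.04), which span 1. Relative to the median density of shared regions, 1.14 (0.835 to 1.56) and 1.02 (0.742 to 1.40) spanned it too. H3K27me3 did not enter the window. In mdx a peak of 41 reads from 10.0 to 8.41 kb upstream brought the mark nearer to the start than in WT, where it was 36.0 kb away, or in mdxTLR4-/-, where it was 32.8 kb away. The median distance over all genes was shortest in mdx too, at 16.1 kb against 22.3 kb in WT and 19.8 kb in mdxTLR4-/-.

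Runx1, on the minus strand at chr16:92601466-92826149, was the member at which H3K27me3 was present in all 3 lists. The gene has a distal promoter at its annotated start, used in blood stem cells and their progeny, and a proximal promoter 129 kb further in that serves other RUNX1 isoforms. H3K27me3 lay upstream of the distal promoter and stopped 1.85 kb before the start in WT and in mdx and 1.65 kb before it in mdxTLR4-/-. The peak nearest to the start had 109 reads over 3.40 kb in WT, 381 over 11.2 kb in mdx and 272 over 9.60 kb in mdxTLR4-/-. In WT a further peak of 358 reads, from 20.5 to 6.05 kb before the start, lay next to it, so the longer peaks of mdx and mdxTLR4-/- took in sequence that was also under H3K27me3 in WT. Merged across the lists, the domain spanned 19.0 kb and held 467 WT, 541 mdx and 337 mdxTLR4-/- reads. Reads per kb of the nearest peak were 32.1 in WT, 34.0 in mdx and 28.3 in mdxTLR4-/-. The ratio of mdxTLR4-/- over mdx was 0.833 (0.710 to 0.976), and those of mdx over WT, 1.06 (0.855 to 1.33), and of mdxTLR4-/- over WT, 0.884 (0.705 to 1.11), spanned 1. The direction of the first depends on scaling: it was 1.155 with reads scaled to 1000000 reads in peaks.

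H3K27ac began between the end of the H3K27me3 and the distal Runx1 start. It ran from 0.451 kb before the start in WT and mdx, and from 0.251 kb before it in mdxTLR4-/-, to 4.55, 3.75 and 2.75 kb past it. Its reads numbered 67 for WT, 37 for mdx and 34 for mdxTLR4-/-, so WT lay above the other lists, which were close to each other. The proximal start was covered by peaks of 16, 15 and 12 reads, which differed by less than counting error. An intronic site about 150 kb into the gene held 41, 27 and 29 reads, and another near 204 kb held 7 in WT and 10 in mdx and was not called in mdxTLR4-/-. Over the whole window the peaks held 131, 97 and 92 reads, or 11.3, 7.70 and 7.67 reads per kb of peak. The ratios of mdx over WT, 0.682 (0.519 to 0.893), and of mdxTLR4-/- over WT, 0.679 (0.514 to 0.893), had intervals below 1 in these unscaled reads, and mdxTLR4-/- over mdx was 0.996 (0.741 to 1.34). Scaled to 1000000 reads in peaks, the ratio of mdx over WT became 0.975 (0.742 to 1.28) and that of mdxTLR4-/- over WT 1.10 (0.836 to 1.45), so both intervals then spanned 1. Relative to the median density of shared regions, 0.792 (0.603 to 1.04) and 0.801 (0.607 to 1.05) spanned it too. Relative to the 1st percentile of read density of each list, 0.682 (0.519 to 0.893) and 0.594 (0.450 to 0.781) stayed below it. Acetylation upstream of the Polycomb domain, 37.3 to 45.3 kb before the start at its widest, held 52 WT, 26 mdx and 37 mdxTLR4-/- reads.

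**Figure D3:**
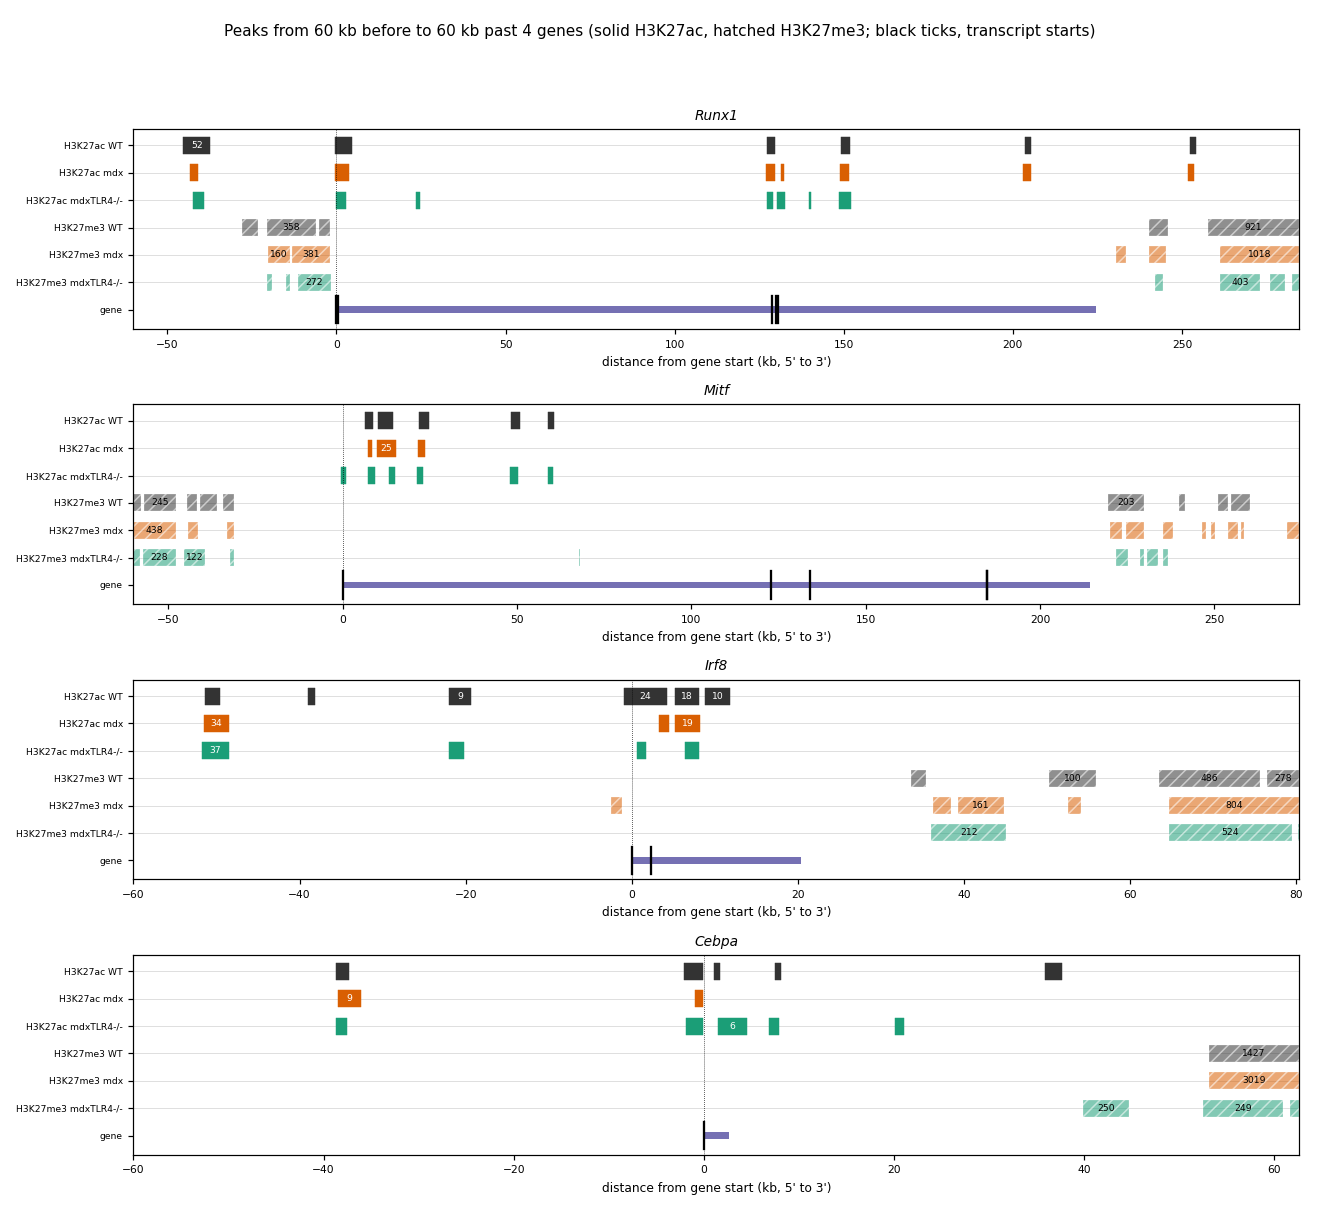
Peaks from 60 kb before the start to 60 kb past the end of Runx1, Mitf, Irf8 and Cebpa, plotted against the distance from the gene start in kb, with solid bars for H3K27ac, hatched bars for H3K27me3 and black ticks for transcript starts. H3K27me3 flanks the genes and leaves the bodies nearly free, the exception within a body being the 19-read peak of mdxTLR4-/- in Mitf, and the acetylated sites of Mitf all lie in the first 61 kb, ahead of its 3 later starts.

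Klf4, on the minus strand at chr4:55527143-55532466, had the fewest acetylated reads of the 9 genes in WT and mdxTLR4-/-, while in mdx Cebpa had fewer. A peak of 8 reads ran from 0.934 kb before to 0.065 kb past the start in WT, and a peak of 11 reads lay from 2.33 to 0.335 kb before it in mdx. The mdxTLR4-/- list had none in the window, and its nearest H3K27ac peak was 112 kb from the start. Peaks of the length of the WT one, 1348 in the mdxTLR4-/- list, held as few as 5 reads. H3K27me3 peaks of 40 reads in mdx and 36 in mdxTLR4-/- lay 14.9 and 14.5 kb past the start, beyond the gene, whereas the nearest in WT was 45.7 kb away. Over all genes too, the median distance was shorter in mdx (16.1 kb) and mdxTLR4-/- (19.8 kb) than in WT (22.3 kb).

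Mitf, on the plus strand at chr6:97807052-98021349, has several promoters that give isoforms of different tissues. Acetylation was found at intronic sites in the first part of the gene. Sites near 7, 12 and 22 kb past the first start were called in all 3 lists, with 11, 6 and 11 reads at the first of them, 35, 25 and 9 at the second and 23, 10 and 8 at the third in WT, mdx and mdxTLR4-/-. Sites near 49 and 60 kb were called with 10 and 9 reads in WT, with 10 and 5 in mdxTLR4-/- and not in mdx. The first start was covered only in mdxTLR4-/-, by a peak of 5 reads, the lowest number that any H3K27ac peak of that list held. The starts 123, 134 and 185 kb into the gene, the last of which is the promoter of the melanocyte isoform, lay in no peak of either mark, and the nearest acetylation in WT was 62.2, 73.3 and 124 kb away. Over the window WT held 88 reads, mdx 41 and mdxTLR4-/- 48. The ratios per kb of peak, 0.741 (0.499 to 1.09) for mdx over WT and 0.707 (0.487 to 1.02) for mdxTLR4-/- over WT, had intervals that span 1. The H3K27me3 peak of 19 reads and 400 bp in mdxTLR4-/-, 67.7 kb into the gene, was at the lower end of peak lengths. The WT list had 4 peaks of that length, with at least 27 reads each.

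Tfec, on the minus strand at chr6:16833373-16898441, showed the same layout in every list. H3K27ac covered the CpG-poor start with 37 WT, 24 mdx and 31 mdxTLR4-/- reads, and a second site between 5.64 and 8.44 kb held 21, 12 and 16 reads. The other annotated protein-coding start, 63.2 kb into the gene, had no peak. WT was highest and mdx lowest at both sites, but reads per kb of peak over the window, 10.7, 10.0 and 8.10, gave ratios of 0.931 (0.597 to 1.44) for mdx and 0.754 (0.502 to 1.13) for mdxTLR4-/- over WT, which span 1. Tfec and Spi1 were the members farthest from H3K27me3 in WT. The nearest to Tfec lay 97.2 kb away in WT and 97.0 kb in mdx and mdxTLR4-/-.

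The members' read densities were then set beside those of all genes. With unscaled H3K27ac reads per kb, 1 of 9 members (Cebpb) was at least 1.5 times lower in mdx than in WT and 0 were higher, against 25.5% and 13.7% of all protein-coding genes with peaks in both lists. In mdxTLR4-/- against WT, 2 of 8 (Cebpa and Cebpb) were lower and 1 (Irf8) higher, against 27.2% and 12.1%. In mdxTLR4-/- against mdx, 1 of 8 (Cebpa) was lower and 0 higher, against 21.1% and 18.4%. The median ratio over the members was 0.931 for mdx over WT, 0.731 for mdxTLR4-/- over WT and 0.949 for mdxTLR4-/- over mdx, beside 0.891, 0.871 and 0.969 over all genes. These directions depended on scaling. With reads scaled to 1000000 reads in peaks, 0 members were lower and 3 higher in mdx against WT, beside 8.01% and 35% of all genes, and 0 were lower and 2 higher in mdxTLR4-/- against WT, beside 6.16% and 44.3%. Of the 25 unscaled ratios per kb at single members, those of Runx1 against WT had intervals that exclude 1, and WT is the shared reference of both. Scaled to reads in peaks, neither did, and the intervals of Spi1, Irf8 and Maf lay above 1 in both comparisons with WT. This scaling multiplies the ratio of every gene alike, by 1.43 for mdx over WT and by 1.63 for mdxTLR4-/- over WT. Relative to the 1st percentile of read density of each list, 0 members had an interval above 1 in either comparison. Intervals below 1 were then those of Runx1 in mdx, and of Cebpa, Runx1, Mitf and Tfec in mdxTLR4-/-. Relative to the median density of shared regions, 0 members had an interval below 1 against WT. Those of Spi1 in mdx, and of Spi1 and Irf8 in mdxTLR4-/-, lay above 1. In total unscaled reads the intervals against WT lay below 1 at 5 members in mdx (Cebpa, Irf8, Runx1, Mitf and Tfec) and at 4 in mdxTLR4-/- (Cebpb, Irf8, Runx1 and Mitf). Total reads were lower over all genes as well. The median ratio of total reads for mdx over WT was 0.740 over the members and 0.75 over all genes. For mdxTLR4-/- over WT it was 0.721 and 0.667. For none of these interval counts, scaled or unscaled, was the share of all genes counted, so they are not read as particular to the members. The members' counts rest on few genes, and no test was possible.

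**Figure D4:**
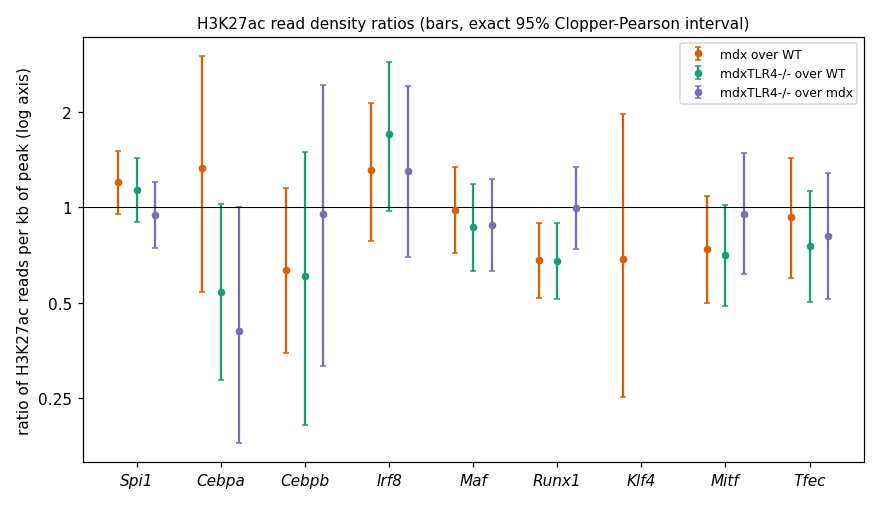
Ratio of unscaled H3K27ac reads per kb of peak between genotypes at each gene, on a log axis, for mdx over WT, mdxTLR4-/- over WT and mdxTLR4-/- over mdx, with exact 95% Clopper-Pearson intervals that cover counting error only. The 2 ratios at Runx1 against WT, 0.682 and 0.679, are those whose intervals lie wholly below 1. They did not after scaling to reads in peaks or to the median density of shared regions, but did relative to the 1st percentile of read density of each list. Klf4 has a value for mdx over WT only because the mdxTLR4-/- list has no peak there.

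The same families hold relatives that are used in other cells or in other states, and 16 of them were listed for comparison. Of these relatives, 8 had an H3K27me3 peak in the WT list, 6 in that of mdx and 5 in that of mdxTLR4-/-, against 1, 2 and 2 of the 9 members. Of all protein-coding genes 38.4%, 41.3% and 39% had one, so the relatives lay around the share of all genes. Coverage of at least 50% was reached by 1 relative in each list. That gene, Runx3, the RUNX factor of lymphocytes, was under H3K27me3 over 53.0%, 53.3% and 51.1% of its window, start included, and had no acetylated start in any list. H3K27ac covered the start of 8, 6 and 6 of the 16 relatives in WT, mdx and mdxTLR4-/-, against 24%, 20.6% and 20.9% of all protein-coding genes. Reads of the start peak were 187, 154 and 125 for Klf6, 148, 124 and 50 for Irf5, and 51, 44 and 47 for Cebpd, while Mafg had 73 in WT and no covered start in the other lists.

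**Figure D5:**
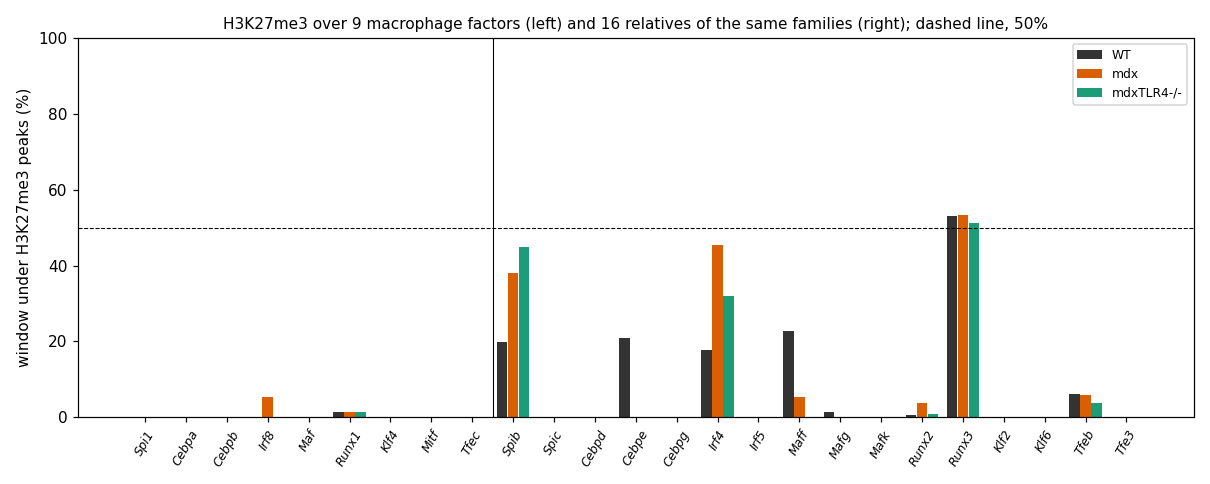
Percent of the gene window under H3K27me3 peaks in WT, mdx and mdxTLR4-/- for the 9 members, left of the line, and 16 relatives of the same families, right of it, with a dashed line at 50%. The members stay near 0, with small bars at Runx1 and, in mdx, at Irf8, and Runx3 reaches 50% in all 3 genotypes.

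Genes that these factors are known to bind or drive in myeloid cells were also acetylated. Of 18 such genes, 17, 16 and 15 had an H3K27ac peak in the window and 13, 10 and 9 had it over the start in WT, mdx and mdxTLR4-/-. Over all protein-coding genes the shares were 39.9%, 34.5% and 36.5% for the window and 24%, 20.6% and 20.9% for the start. None of the 18 reached 50% coverage by H3K27me3. An H3K27me3 peak lay in the window of 1, 1 and 2 of the 18, against 38.4%, 41.3% and 39% of all protein-coding genes. In every list 1 of the 18 with such a peak was Fcgr3, an Fc receptor gene. Its start lay inside a peak of 6528 (WT), 6789 (mdx) or 6802 (mdxTLR4-/-) reads, or 183, 194 and 258 reads per kb, over 32.1% of its window. The median H3K27me3 peak of these lists held only 24.5, 28.3 and 23.7 reads per kb. No input was subtracted, so what raised the reads at Fcgr3 was not tested. The other gene with an H3K27me3 peak, in mdxTLR4-/-, was the phosphatase gene Acp5 with a peak of 36 reads. H3K27ac in the Fcgr3 window held 31, 46 and 36 reads. The start peaks with the most WT reads were those of Mpeg1 (136, 72 and 82), the pore-forming perforin-2 of macrophages, of Lyz2 (108, 132 and 85), which encodes lysozyme, and of the endotoxin co-receptor gene Cd14 (67, 38 and 36). Cd68 had 57 reads in WT and 28 in mdx, and its start was uncovered in mdxTLR4-/-. WT exceeded mdx at 3 of these 4 genes and mdx exceeded WT at Lyz2, in unscaled reads. Csf1r, the receptor for the growth factor in the culture medium, held 180, 165 and 132 reads in its window.

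The identity of the cultures was checked with markers. All 8 macrophage markers had H3K27ac in every list, with summed reads of 682, 527 and 439, and 0 had H3K27me3. T cell and erythroid markers had 0 acetylated reads. Neutrophil precursor markers had 0, 0 and 7, and B cell markers 11, 0 and 0. Fibroblast markers had 49, 7 and 38 reads in their windows, with 0 of 4 starts covered in any list, of which 41, 7 and 30 lay at Col1a1 and 0 at Pdgfra. The part of other cells in the members' values was not tested. At the Tlr4 gene H3K27ac covered the start in all 3 lists with 44, 29 and 28 reads, mdxTLR4-/- included. A peak there shows acetylation of the locus and says nothing of the deleted sequence, so it does not check the genotype.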

How the data were processed

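Native MNase chromatin immunoprecipitation for H3K27me3 and H3K27ac had been done on BMDM of 3 genotypes, in 18 samples by the labels, input included. Per the submitters' processing notes and the methods, reads were trimmed with cutadapt 1.15, mapped to mm10 with Bowtie2 2.3.4, merged over replicates, and called into peaks with SICER 2.0 (window 200 bp, gap 600 bp, FDR below 0.01). The deposited counts, used here as the authors made them, are ChIP reads per peak, unscaled and with no input subtracted. Lists held 12076 to 15665 H3K27ac peaks and 28143 to 41780 H3K27me3 peaks, and library depth is unknown.

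Genes and starts came from GENCODE vM21. A peak counted from 1 bp of overlap with the window, which ran from 5 kb upstream to 1 kb past the gene body. Intervals were exact Poisson for reads and exact Clopper-Pearson for ratios. Python 3.11.15 with pandas 2.3.3 and scipy 1.17.1 was used, and overlap, interval and motif code was tested on simulated data.

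The members and lists were chosen with earlier results of these data known. All 9 members are named. From the relatives and the known target genes, those with at least 50% of the window under H3K27me3 and the 4 with the most WT reads in the H3K27ac start peak are named. 1 relative of the list is not reported here and enters none of its counts. Rapsn, Slc7a10, Lrp3, Csf1r, Fcgr3, Acp5, Col1a1 and Pdgfra were named after their values were seen. Alternatives were peak length and density limits, other overlap and coverage rules, other starts, equal list sizes and other scalings of reads.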

Additional observations from a re-analysis of the deposited data

How the results depend on the processing

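Without replicates in the lists no library could be left out, and no paired analysis was possible because the libraries of a genotype had been merged. The depth of the libraries is unknown, so unscaled reads per kb carry any difference in depth, and the H3K27ac lists are thin. Counts of members moved with the rule. Increased for H3K27ac fell to 3 in WT, 3 in mdx and 2 in mdxTLR4-/- when 1 kb of acetylated upstream sequence was asked for. A peak within 1 kb of the start was found at 7 members in each list, which moved mdx the most, from 4. The members with H3K27me3 in the window fell to 1 in mdx and 1 in mdxTLR4-/- with peaks of at least 2 kb, or with at least 50% of the peak or of the window, and to 1 in mdxTLR4-/- with the 5 kb upstream only, which left Runx1. Members at least 1.5 times apart in H3K27ac density depended on scaling. With reads scaled to 1000000 reads in peaks, 0 were lower and 3 higher in mdx against WT, and 0 lower and 2 higher in mdxTLR4-/- against WT. Relative to the 1st percentile of density, 5 were lower and 0 higher in mdxTLR4-/- against WT. In that comparison this scaling multiplies the ratio of every gene alike, by 0.875. Relative to the median density of shared regions, 0 were lower and 2 higher in mdx against WT, and 1 was lower in mdxTLR4-/- against WT. With peaks whose middle lies in the window, 0 were lower in mdx and 1 in mdxTLR4-/- against WT. The share of all genes was counted for unscaled reads and for reads in peaks only, so the other counts have no share beside them. At Runx1 the H3K27me3 ratio of mdxTLR4-/- over mdx turned to 1.155 with reads in peaks, 1.06 with the 1st percentile and 1.05 with shared regions, and the H3K27ac ratio of mdxTLR4-/- over WT to 1.10 with reads in peaks. These changes at Runx1 follow from the scaling factor itself. The counts by peak middle moved without scaling, as the WT peak of Cebpb then no longer counted. The stricter density limit and equal list sizes left the counts of members within 1.5 times their values.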
